A study of Peniophora incarnata with 12 samples.

Results

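Poplar wood was set against rice straw as a growth substrate of the white-rot fungus Peniophora incarnata, a hardwood against a grass, across every gene with 1 FPKM or more in any 3 of these 6 libraries. FPKM is a read count scaled by gene length and by the total of the library. The rule kept 13563 of 16059 genes. Just inside it was A00337, which had 1.24, 0.789 and 0.337 FPKM on poplar wood and 0.232, 1.00009 and 1.15 FPKM on rice straw. Just outside was A15203, with 0.965, 1.99 and 4.62 FPKM on poplar wood and 0.205, 0.99994 and 0.944 FPKM on rice straw. Of the tested genes 11790 reached 1 FPKM in all 6 libraries, 148 in the 3 poplar wood libraries and no rice straw library, and 130 in the 3 rice straw libraries and no poplar wood library. Such genes passed only through the group in which they were high. Among the 2496 genes that were not tested, 187 were listed at 0 in all 6 libraries.

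The study grew the wild type strain T-7 for 30 days in static culture in the dark on 4 media, with 3 cultures each that the labels call biological replicates. Mycelium came from powdered poplar wood, from powdered rice straw, from powdered Chinese fir wood, and from PDA, the control medium, and was profiled by stranded sequencing of poly(A) RNA. The labels give no difference between the groups other than the substrate, and all cultures carried the same genotype. Hardwood and grass were each represented by 1 material in powder form and 1 time point, so the class of plant and the particular material cannot be told apart.

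White-rot fungi open the lignin of plant cell walls with secreted oxidative enzymes and hydrolyse the cellulose and hemicellulose that it encloses. Laccases oxidise phenols with oxygen, while manganese and versatile peroxidases use hydrogen peroxide, which other secreted oxidases supply. Cellulases, lytic polysaccharide monooxygenases, xylanases and mannanases then release sugars, which enter the mycelium through transporters. Gene names below are those of the deposited annotation, many taken from other fungi, and the roles given are those known for the named proteins, not measured here.

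The values of the poplar wood libraries rested on 25804766, 23398461 and 25527090 reads and those of the rice straw libraries on 26457346, 27057927 and 30952888. At the median coding length of the tested genes, 1419 bases, 1 FPKM stood for 33.2 to 36.6 reads on poplar wood and for 37.5 to 43.9 on rice straw. The poplar wood cultures differed more among themselves than the straw cultures. The median SD of a gene on the log2(FPKM + 1) scale was 0.467 on poplar wood, against 0.177 on rice straw (n = 3 each). Across genes, poplar wood replicate 1 correlated with replicate 2 at r = 0.923 and with replicate 3 at 0.858. Poplar wood replicates 2 and 3 correlated at 0.948. With the Chinese fir wood libraries, poplar wood replicate 1 correlated at 0.842 to 0.893. The 3 straw libraries correlated with each other at 0.977 to 0.989. Of the straw libraries, replicate 3 was the closest to a mixture of the others. Its reads differed from the best such mixture by a mean chi-square of 7.05 per gene, against 36.8 and 27.8 for straw replicates 1 and 2 treated the same way. Both of these were fitted best by replicate 3 alone. On poplar wood replicate 2 was likewise the closest to a mixture, at 123, against 303 and 183 for replicates 1 and 3. The separate origin of rice straw replicate 3 was not tested. Results that lean on that library or on poplar wood replicate 1 are given with and without them.

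Poplar wood and rice straw cultures differed in 3576 of the 13563 genes, 26.4% of those tested. Higher on poplar wood were 1764 genes, 13.0% of those tested, and lower were 1812, 13.4%. Laccase-2 and peroxidase genes, ribosome assembly factors and splicing factors were among the genes that rose on poplar wood. Cellulases, sugar transporters, phosphoketolases, small heat shock proteins and enzymes of glycolysis and gluconeogenesis were among those that fell. A gene was called where limma's moderated test on log2(FPKM + 1) gave an adjusted p under 0.05 (Benjamini-Hochberg, all 13563 genes) and the log2 fold change was at least 1 in size. The test measures the spread between these 6 libraries. The adjusted p alone was met by 4402 genes, and the middle log2 fold change among tested genes was 0.07. A log2 fold change of 3 or more was reached by 131 called genes upward on poplar wood and by 201 downward. The libraries of the groups did not overlap in 6827 genes, 50.3% of those tested. Poplar wood lay above in 3541, which is 26.1% of the tested genes, and below in 3286, which is 24.2%. Calls were more frequent among abundant genes. Of 3574 genes with a mean under 5 FPKM over the 6 libraries 14.2% were called, and of 1427 genes at 100 FPKM or more 36.3% were. Without rice straw replicate 1, 2 or 3 the number of called genes fell to 2282, 2378 and 2026 in that order, and without poplar wood replicate 1 it was 4309. Leaving out poplar wood replicate 1 and rice straw replicate 3 together gave 4072.

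**Figure D1:**
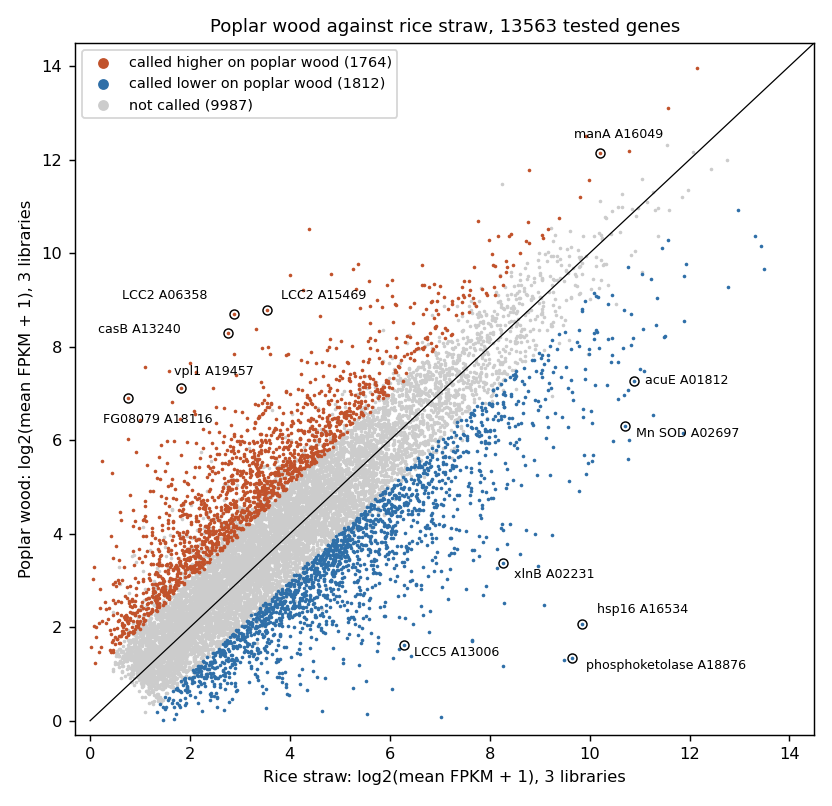
Mean level of each of the 13563 tested genes on poplar wood (vertical axis) and rice straw (horizontal axis), each as log2 of the mean FPKM of 3 libraries plus 1, with equal levels on the black line. The 1764 genes called higher on poplar wood lie above the line and the 1812 called lower lie below it, and the circled phosphoketolase A18876 and hsp16 A16534 stand farthest below among the labelled genes.

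Groups of related genes departed from these background shares in both directions, as the plot of called list members shows. Lists were built from the wording of descriptions and pathway names. They were set up with earlier results of these data known and are described here by counts, without a test of their own. Among class II peroxidases 11 of 23 were higher and 1 was lower, and among cellulases 1 of 13 was higher and 10 were lower. Pathway genes of ribosome biogenesis were higher in 51 of 80 and lower in 0. By contrast 1 of 51 proteasome genes was called, and transcription factors, with 23 higher and 19 lower of 169, were close to the background.

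**Figure D2:**
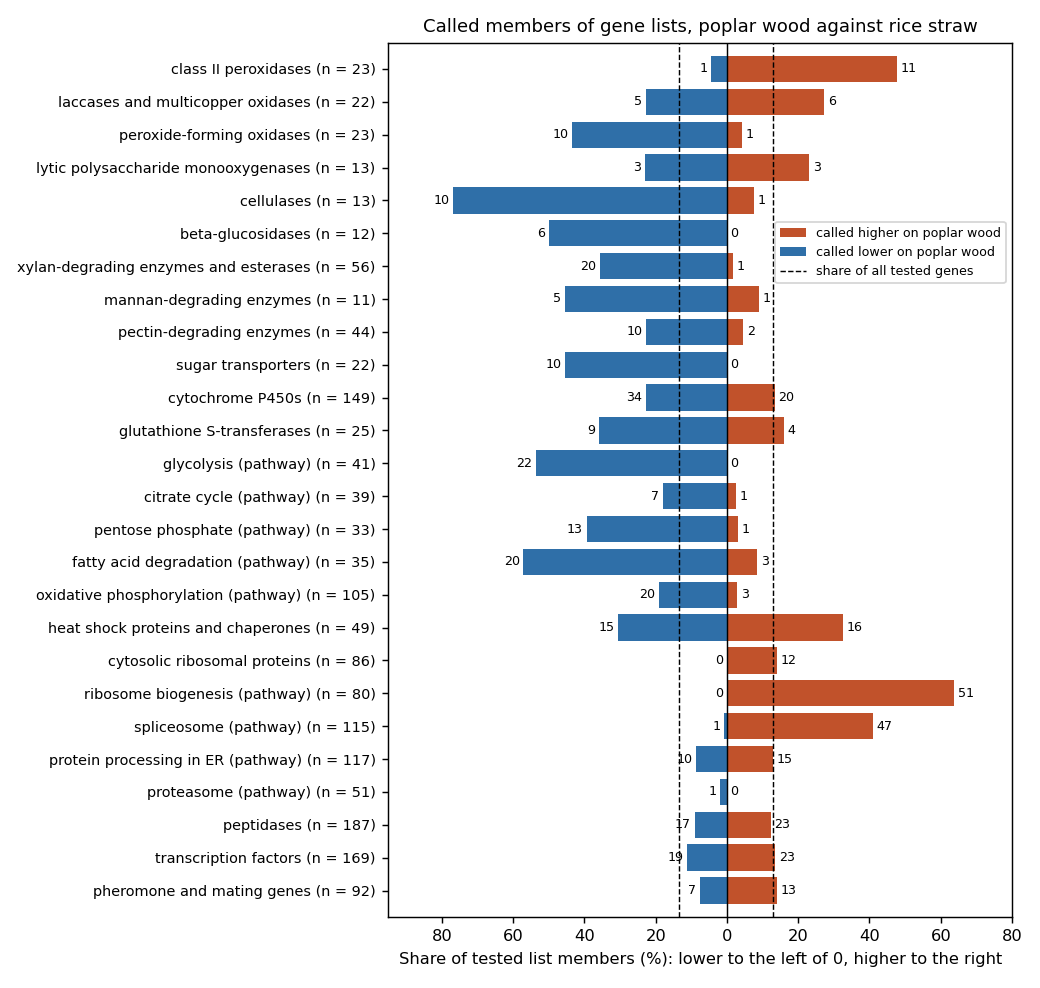
Share of the tested members of 26 gene lists called higher (to the right of 0) or lower (to the left of 0) on poplar wood against rice straw, with the number of genes at each bar and the number tested in brackets. Dashed lines mark the shares among all tested genes, 13.0% higher and 13.4% lower; ribosome biogenesis, peroxidases and spliceosome genes extend past the right line and cellulases, fatty acid degradation and glycolysis genes past the left line.

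Class II peroxidase genes that were called were higher on poplar wood with 1 exception. Of 30 class II peroxidase genes in the annotation 23 passed the filter, and 11 of them rose and 1 fell, with a median log2 fold change of 1.23 over the 23. Summed over all 30 genes, untested ones included as in the sums below, the peroxidases reached 197, 1016 and 303 FPKM on poplar wood, against 84.4, 62.2 and 72.0 FPKM on rice straw. Each poplar culture lay above each straw culture, and replicate 2 stood far above the other poplar cultures. Versatile peroxidase vpl1 (A19457), which oxidises manganese as well as phenolic compounds, had 26.6, 320.4 and 67.4 FPKM on poplar wood, against 2.24, 3.20 and 2.19 FPKM on rice straw. Replicate 2 was again the highest of the poplar cultures, the groups did not overlap, and the log2 fold change was 4.59 ± 0.77 (SE; limma, adjusted p = 0.00432). It was 3.63 without poplar wood replicate 2 and 5.40 without replicate 1. A second versatile peroxidase, vps1 (A14046), had 19.9, 198 and 43.6 FPKM on poplar wood, against 2.63, 1.67 and 3.16 FPKM on rice straw. The same culture led here, all straw values were lower than all poplar values, and the log2 fold change was 4.06 ± 0.73 (SE; limma, adjusted p = 0.00552), or 3.15 without that culture and 4.78 without poplar wood replicate 1. Manganese peroxidase mnp3 (A13193), whose product attacks lignin through oxidised manganese, had 7.74, 80.3 and 26.4 FPKM on poplar wood, against 0.0722, 0.106 and 0.864 FPKM on rice straw. Poplar replicate 1 was the lowest of its group and still above all straw cultures. This gene passed the filter only through poplar wood, as 1 of the 148 such genes that had to differ, and its values are a description, with a log2 fold change of 4.37 ± 0.72 (SE). This estimate was 3.57 without poplar wood replicate 2 and 5.18 without replicate 1. Manganese peroxidase 3 was the description of 17 tested genes, of which 9 rose and 0 fell, with log2 fold changes from -0.63 to 4.37. The exception among class II peroxidases was another vps1 gene (A11644). Its values were 0.451, 0.613 and 0.281 FPKM on poplar wood, against 7.76, 1.59 and 3.68 FPKM on rice straw. It was lower in all poplar cultures but near the filter, which it passed only through rice straw. As 1 of the 130 such genes it had to differ. Its values are a description, with a log2 fold change of -1.71 ± 0.41 (SE). It was not called without poplar wood replicate 2 or rice straw replicate 3, with a pseudocount of 5 or with group weights. Of the 11 genes that rose, 7 had their highest poplar value in replicate 2, 4 in replicate 3 and 0 in replicate 1. Leaving out rice straw replicate 1 reduced the number of class II peroxidases called higher to 6. Outside this class, the dye-decolorizing peroxidase dyp1 (A14508) was called lower. It had 4.08, 8.21 and 17.6 FPKM on poplar wood, against 23.7, 33.4 and 27.5 FPKM on rice straw. Its log2 fold change was -1.60 ± 0.45 (SE; limma, adjusted p = 0.0308). That call was lost without poplar wood replicate 2 or any of the 3 straw replicates.

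Laccases split. Of 22 tested laccase and multicopper oxidase genes 6 rose and 5 fell on poplar wood, and their median log2 fold change was 0.32. All 30 genes in the annotation summed to 3163, 1102 and 654 FPKM on poplar wood, against 453, 437 and 437 FPKM on rice straw. Laccase-2 gene LCC2 (A06358) had 925, 239 and 81.6 FPKM on poplar wood, against 6.33, 5.27 and 7.45 FPKM on rice straw. Poplar replicate 1 was by far the highest and replicate 3 the lowest of the group, yet no straw culture came near them, and the log2 fold change was 5.18 ± 0.76 (SE; limma, adjusted p = 0.00245). It was 4.27 without poplar wood replicate 1 and 6.01 without replicate 3. On the other media the gene stood at 193, 290.1 and 105 FPKM on Chinese fir wood and 132, 175 and 215 FPKM on PDA. A further LCC2 gene (A15469) had 946, 191 and 188 FPKM on poplar wood, against 12.96, 7.49 and 11.5 FPKM on rice straw. Replicate 1 led again, the groups were far apart, and the log2 fold change was 4.84 ± 0.61 (SE; limma, adjusted p = 0.00134), or 4.07 without that culture. This gene stood at 359, 445 and 297 FPKM on Chinese fir wood and 2.80, 7.79 and 10.1 FPKM on PDA. The laccase gene POX2 (A15535), also described as laccase-2, had 474, 140.1 and 151 FPKM on poplar wood, against 11.2, 9.17 and 11.8 FPKM on rice straw. It followed the same order of cultures, with a log2 fold change of 4.22 ± 0.46 (SE; limma, adjusted p = 0.000809). In the opposite direction, LCC5 (A13006), described as laccase-5, had 1.95, 2.79 and 1.48 FPKM on poplar wood, against 66.4, 92.5 and 70.6 FPKM on rice straw. Every poplar culture was lower than every straw culture and the spread was small, with a log2 fold change of -4.66 ± 0.27 (SE; limma, adjusted p = 0.000134). The iron multicopper oxidase fer1 (A04976), which works with an iron permease in high-affinity iron uptake, had 1.88, 6.09 and 3.11 FPKM on poplar wood, against 45.9, 41.9 and 47.3 FPKM on rice straw. It too was lower in all poplar cultures, with a log2 fold change of -3.39 ± 0.35 (SE; limma, adjusted p = 0.000694). Of 9 tested laccase-2 genes 4 rose and 1 fell, with log2 fold changes from -1.94 to 5.18, so genes of 1 description moved in both directions. Of the 6 genes that rose, 5 had their highest poplar value in replicate 1, the culture in which the peroxidases were lowest.

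**Figure D3:**
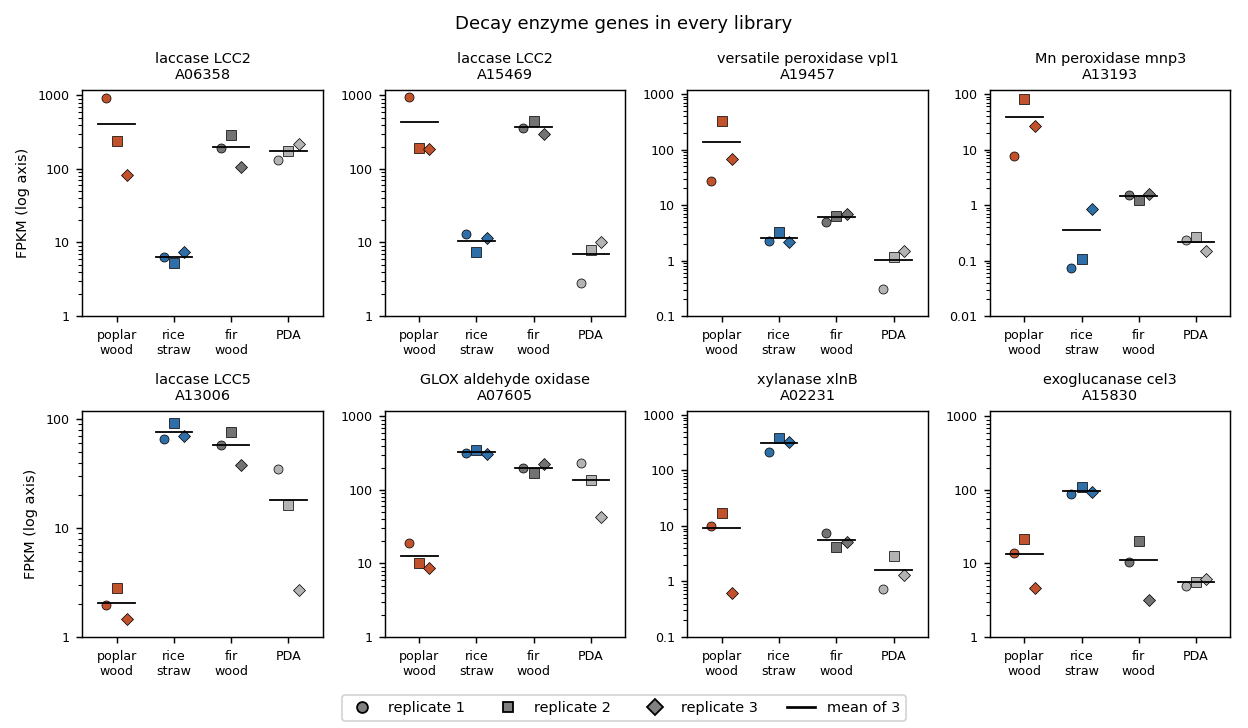
FPKM on a log axis of 8 decay enzyme genes in all 12 libraries, with 1 symbol per replicate number and a bar at the mean of 3 libraries, poplar wood in orange and rice straw in blue. The 3 poplar wood values of LCC2 A06358, LCC2 A15469, vpl1 and mnp3 lie above all straw values, and those of LCC5, the GLOX aldehyde oxidase, xlnB and cel3 lie below them.

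Of 23 tested genes for enzymes that form hydrogen peroxide 10 fell on poplar wood, 1 rose and 12 were not called, and the median log2 fold change was -0.67. An aldehyde oxidase of the GLOX type (A07605), which makes peroxide while oxidising small aldehydes, had 19.1, 10.2 and 8.62 FPKM on poplar wood, against 322, 353 and 304 FPKM on rice straw. Poplar values were far below straw values in every culture, with a log2 fold change of -4.66 ± 0.31 (SE; limma, adjusted p = 0.000185). A further GLOX gene (A14348) had 7.99, 4.29 and 4.13 FPKM on poplar wood, against 226, 248 and 223 FPKM on rice straw. It behaved alike, with a log2 fold change of -5.22 ± 0.28 (SE; limma, adjusted p = 0.000134). Alcohol oxidase AOD1 (A05729), which oxidises methanol and other short alcohols, had 1.05, 20.1 and 26.3 FPKM on poplar wood, against 310.0, 301 and 309 FPKM on rice straw. Poplar replicate 1 was the lowest of all cultures and the straw cultures hardly differed, with a log2 fold change of -4.86 ± 0.87 (SE; limma, adjusted p = 0.0055). It was -3.68 without poplar wood replicate 1 and -5.55 without replicate 3. The gene that rose was also of the GLOX type (A15861), at 19.2, 14.6 and 10.8 FPKM on poplar wood, against 4.99, 3.42 and 5.12 FPKM on rice straw. All poplar values exceeded all straw values, with a log2 fold change of 1.51 ± 0.29 (SE; limma, adjusted p = 0.00719), and 3 genes of the list were called higher without poplar wood replicate 1. Over the 23 genes the summed level was 450, 585 and 756 FPKM on poplar wood, against 1792, 2100 and 1907 FPKM on rice straw. Among 28 tested genes for the breakdown of aromatic compounds, 1 rose and 4 fell, the share that fell being near the background. The riser was phhA (A10734), at 4.23, 5.38 and 2.42 FPKM on poplar wood, against 1.82, 1.16 and 1.04 FPKM on rice straw. Its log2 fold change was 1.07 ± 0.29 (SE; limma, adjusted p = 0.0262). The call was lost without poplar wood replicate 2 or any straw replicate, and with a pseudocount of 5. Outside that list was the dehydratase qa-4 (A16425), which converts dehydroshikimate to the aromatic acid protocatechuate. This gene had 334, 177 and 89.6 FPKM on poplar wood, against 3.03, 3.64 and 2.31 FPKM on rice straw. All poplar cultures were far above all straw cultures, with a log2 fold change of 5.47 ± 0.45 (SE; limma, adjusted p = 0.000366), while the level on PDA was as high as on poplar wood, at 248, 334 and 406 FPKM.

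Cellulose-degrading enzymes were lower on poplar wood. Of 13 tested cellulases 10 fell and 1 rose, and the median log2 fold change was -2.45. All 15 cellulases in the annotation summed to 77.6, 109 and 73.6 FPKM on poplar wood, against 415, 431 and 432 FPKM on rice straw, with no overlap. Exoglucanase cel3 (A15830), which releases cellobiose from chain ends, had 14.1, 21.6 and 4.69 FPKM on poplar wood, against 88.3, 110.4 and 93.1 FPKM on rice straw. The straw cultures were all higher and varied little, and the log2 fold change was -2.97 ± 0.48 (SE; limma, adjusted p = 0.00349). The endoglucanase eglB (A09811), which cuts within chains, had 4.68, 6.74 and 8.18 FPKM on poplar wood, against 98.4, 84.6 and 91.1 FPKM on rice straw. Its poplar values were also lower throughout, with a log2 fold change of -3.64 ± 0.26 (SE; limma, adjusted p = 0.000215). The endoglucanase Eg5A (A04206) was the gene that rose, at 20.1, 35.4 and 33.8 FPKM on poplar wood, against 5.06, 6.59 and 6.27 FPKM on rice straw. No straw culture reached the lowest poplar culture, and the log2 fold change was 2.11 ± 0.29 (SE; limma, adjusted p = 0.00194). Beta-glucosidases, which split cellobiose to glucose, fell in 6 of 12 tested genes and rose in 0. The most abundant, bglL (A17008), had 8.14, 32.6 and 15.9 FPKM on poplar wood, against 128, 101 and 115 FPKM on rice straw. Poplar replicate 2 was the highest of its group and still below all straw cultures, with a log2 fold change of -2.73 ± 0.44 (SE; limma, adjusted p = 0.00373).

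Lytic polysaccharide monooxygenases, copper enzymes that cut crystalline cellulose by oxidation, moved in both directions, with 3 of 13 higher and 3 lower. The 3 that rose were all described as Cel61a (A16833, A00617 and A16832). The 3 that fell were all named eglD (A14936, A15209 and A03217), a group known for oxidative cleavage although its description reads endoglucanase. Cel61a A16833 had 358, 445 and 239.8 FPKM on poplar wood, against 109.5, 129 and 121 FPKM on rice straw. Poplar wood was above rice straw in every culture, with a log2 fold change of 1.49 ± 0.28 (SE; limma, adjusted p = 0.00661). For eglD A14936 the values were 3.79, 4.90 and 0.989 FPKM on poplar wood, against 18.1, 31.9 and 26.6 FPKM on rice straw. These poplar values were all lower than the straw values, with a log2 fold change of -2.76 ± 0.44 (SE; limma, adjusted p = 0.00341). Because the Cel61a genes were the more abundant, all 15 genes in the annotation summed to 742, 987 and 553 FPKM on poplar wood, against 298, 376 and 328 FPKM on rice straw. The call of A16832 was lost without rice straw replicate 1 or 3, and that of A03217 without rice straw replicate 2 or 3.

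Hemicellulose enzymes that were called were lower on poplar wood, with single exceptions, and many were not called. Of 56 tested genes in the list of xylan-degrading enzymes and esterases, 20 fell, 1 rose and 35 were not called. The list was built from descriptions, and action on xylan was not established for each member. Xylanase xlnB (A02231), which cuts the xylan backbone, had 10.01, 17.3 and 0.625 FPKM on poplar wood, against 212, 389 and 324 FPKM on rice straw. Poplar replicate 3 was lowest, all straw cultures were higher by a wide margin, and the log2 fold change was -5.44 ± 0.81 (SE; limma, adjusted p = 0.00261). It was -4.40 without poplar wood replicate 3 and -6.15 without replicate 2. The gene that rose was described as a beta-glucuronidase (A13889), a description that does not name xylan. It had 104, 59.8 and 41.2 FPKM on poplar wood, against 13.3, 7.62 and 10.4 FPKM on rice straw. Its groups did not overlap, with a log2 fold change of 2.53 ± 0.38 (SE; limma, adjusted p = 0.00264). Without poplar wood replicate 3, 3 genes of the list were called higher. Of 11 mannan-degrading genes 5 fell, 1 rose and 5 were not called. Their sum was higher on poplar wood, at 7825, 4145 and 2010 FPKM, against 1790, 1161 and 1422 FPKM on rice straw, most of it from the riser. The riser was manA (A16049), an endomannanase that cleaves inside the mannan chain. It had the highest mean on poplar wood among the lists of decay enzymes in the plot of called members. Its values were 7694, 4033 and 1893 FPKM on poplar wood, against 1504, 881 and 1139 FPKM on rice straw. The lowest poplar culture was only slightly above the highest straw culture, with a log2 fold change of 1.76 ± 0.50 (SE; limma, adjusted p = 0.0301). This call was lost when poplar wood replicate 2 or any of the 3 straw replicates was left out. By limma's adjusted p it was also lost under median-of-ratios scaling (adjusted p = 0.0525), without the filter on low values (adjusted p = 0.0734), and with poplar wood replicate 1 and rice straw replicate 3 left out together (adjusted p = 0.0515). Chinese fir wood, a softwood, gave manA 1985, 2527 and 1591 FPKM. Beta-mannosidase mndA (A14227), which trims mannan fragments, had 47.99, 34.6 and 31.1 FPKM on poplar wood, against 131, 119.5 and 121 FPKM on rice straw. It was lower in all poplar cultures, with a log2 fold change of -1.71 ± 0.25 (SE; limma, adjusted p = 0.00231).

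Pectin-degrading enzymes fell in 10 of 44 tested genes and rose in 2, with 27.3% called, near the 26.4% among all tested genes. By direction, the share that fell was above the background of 13.4% and the share that rose below that of 13.0%. The number that fell was 6 without rice straw replicate 2 and 4 without replicate 3. The arabinanase abnA (A00695), which cuts arabinan side chains of pectin, had 4.65, 1.41 and 1.76 FPKM on poplar wood, against 53.95, 20.2 and 32.5 FPKM on rice straw. All poplar values were lower, with a log2 fold change of -3.34 ± 0.45 (SE; limma, adjusted p = 0.00176). Sugar transporters fell in 10 of 22 tested genes and rose in 0. The lactose permease LAC12 (A09461), a member of the large family of sugar carriers, had 108, 155 and 176 FPKM on poplar wood, against 461, 370.0 and 404 FPKM on rice straw. The groups were apart, with a log2 fold change of -1.51 ± 0.26 (SE; limma, adjusted p = 0.00482). Summed over the 24 transporters in the annotation, the level was 559, 825 and 851 FPKM on poplar wood, against 1337, 1268 and 1287 FPKM on rice straw. Among 34 nitrogen transporters 7 fell and 1 rose, with 23.5% called, below the 26.4% among all tested genes. Here too the share that fell was above its background and the share that rose below. The riser was the peptide transporter ptr2 (A01680), at 965, 788 and 823 FPKM on poplar wood, against 362, 347 and 354 FPKM on rice straw. Every poplar culture was above every straw culture, with a log2 fold change of 1.27 ± 0.22 (SE; limma, adjusted p = 0.00448). Of these transporters 3 were called higher without poplar wood replicate 1 and 4 without replicate 3.

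Cytochrome P450 monooxygenases, which oxidise a wide range of small molecules including lignin fragments, moved in both directions: 20 of 149 tested genes rose and 34 fell. The share that rose was close to the background, and the share that fell was above the background of 13.4%. A P450 described as FG08079 (A18116) was at 118, 165 and 75.5 FPKM on poplar wood, against 0.745, 0.530 and 0.811 FPKM on rice straw. The straw cultures were all below 1 FPKM and the poplar cultures all far above. The gene is 1 of the 148 that passed the filter only through poplar wood and so had to differ, and its values are a description, with a log2 fold change of 6.08 ± 0.32 (SE). Its namesake A03184 had 188, 243 and 97.8 FPKM on poplar wood, against 2.40, 1.89 and 1.71 FPKM on rice straw. It repeated the pattern, with a log2 fold change of 5.79 ± 0.36 (SE; limma, adjusted p = 0.000153). A P450 that fell (A09639) had 1.27, 0.285 and 0.287 FPKM on poplar wood, against 42.4, 88.3 and 65.1 FPKM on rice straw. Here the poplar values were the low ones, and only poplar wood replicate 1 reached 1 FPKM. The 3 straw cultures alone met the filter, so the values are a description, with a log2 fold change of -5.35 ± 0.36 (SE). The number of P450 genes called higher was 13 without poplar wood replicate 2, 10 without rice straw replicate 1 and 9 without rice straw replicate 3. Glutathione S-transferases, which couple glutathione to reactive compounds, rose in 4 of 25 tested genes, a share near the background. They fell in 9, a share above the background. The transferase ustS (A02085) had 236, 229 and 143 FPKM on poplar wood, against 33.6, 34.1 and 34.8 FPKM on rice straw. Poplar wood was higher throughout, with a log2 fold change of 2.50 ± 0.26 (SE; limma, adjusted p = 0.000721). The number of transferases called lower was 4 without poplar wood replicate 2, 5 without rice straw replicate 2 and 4 without rice straw replicate 3. Those called higher numbered 2 without poplar wood replicate 2 or rice straw replicate 2, and 1 without rice straw replicate 1 or 3.

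The largest falls on poplar wood were in the phosphoketolases, which cleave sugar phosphates to acetyl phosphate. Phosphoketolase A18876 had 0.383, 2.22 and 1.97 FPKM on poplar wood, against 385, 1191 and 816 FPKM on rice straw. The gene was almost silent in the poplar cultures, and in the straw cultures replicate 1 was lowest and replicate 2 highest, with a log2 fold change of -8.25 ± 0.49 (SE; limma, adjusted p = 0.000134). Its namesake A19231 had 0.638, 2.15 and 1.61 FPKM on poplar wood, against 359, 1058 and 730.1 FPKM on rice straw. The same order of cultures held, with a log2 fold change of -8.10 ± 0.44 (SE; limma, adjusted p = 0.000134). Levels of A18876 on the other media were 79.2, 34.4 and 119 FPKM on Chinese fir wood and 324, 174 and 33.4 FPKM on PDA. They lay between those of poplar wood and the straw maximum, with a wide spread on PDA.

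Genes of central carbon metabolism fell on poplar wood in several pathways. Of 41 tested genes in the pathway of glycolysis and gluconeogenesis 22 fell and 0 rose, with a median log2 fold change of -1.50, and 13 fell without rice straw replicate 2. Members that fell included glycolytic enzymes but also genes of other steps. Alcohol dehydrogenase alcC (A09930), which interconverts ethanol and acetaldehyde, had 22.1, 73.2 and 46.4 FPKM on poplar wood, against 815, 2576 and 1805 FPKM on rice straw. Poplar values were far lower in every culture, with a log2 fold change of -5.17 ± 0.54 (SE; limma, adjusted p = 0.000706). Phosphoenolpyruvate carboxykinase PCK1 (A01951), the first committed enzyme of gluconeogenesis, had 33.7, 102 and 50.8 FPKM on poplar wood, against 1348, 1481 and 1429 FPKM on rice straw. The straw cultures were tightly grouped and all higher, with a log2 fold change of -4.64 ± 0.39 (SE; limma, adjusted p = 0.000366). The glycolytic enzyme triosephosphate isomerase TPI (A14475) had 9.40, 51.04 and 58.1 FPKM on poplar wood, against 165, 269 and 233 FPKM on rice straw. Poplar replicate 1 was the lowest and none overlapped with straw, with a log2 fold change of -2.79 ± 0.63 (SE; limma, adjusted p = 0.0135). It was -1.98 without that culture and the call was lost without rice straw replicate 2. In the pentose phosphate pathway 13 of 33 tested genes fell and 1 rose, the phosphoketolases being among those that fell. The number that fell was 8, 7 and 7 without rice straw replicates 1, 2 and 3 in that order. In the citrate cycle 7 of 39 fell and 1 rose, with 20.5% called, below the 26.4% among all tested genes. By direction, the share that fell was above the background of 13.4% and the share that rose below that of 13.0%. Those that fell included the succinate-CoA ligase subunit SCSB (A04296), at 124, 601 and 328 FPKM on poplar wood, against 2899, 2242 and 2615 FPKM on rice straw. All its poplar values were lower, with a log2 fold change of -3.14 ± 0.52 (SE; limma, adjusted p = 0.00406), or -2.53 without poplar wood replicate 1.

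The glyoxylate cycle, which lets fungi build sugars from acetate and fatty acids, showed its defining enzymes lower on poplar wood. Malate synthase acuE (A01812) had 21.9, 326 and 113 FPKM on poplar wood, against 2119, 1654 and 1943 FPKM on rice straw. Poplar replicate 2 was the highest of its group but well below straw, with a log2 fold change of -4.32 ± 0.83 (SE; limma, adjusted p = 0.00701), -3.30 without poplar wood replicate 1 and -5.21 without replicate 2. Isocitrate lyase ACU-7 (A18288) had 17.5, 107 and 25.3 FPKM on poplar wood, against 925, 959.6 and 961 FPKM on rice straw. It was lower in all poplar cultures, with a log2 fold change of -4.66 ± 0.59 (SE; limma, adjusted p = 0.0014), or -5.43 without poplar wood replicate 2. For acuE the levels on the other media were 265, 385 and 155 FPKM on Chinese fir wood and 2253, 2570.1 and 2851 FPKM on PDA. The PDA level was thus near that of rice straw and the Chinese fir wood level near that of poplar wood. The list of glyoxylate, oxalate and formate genes as a whole had 3 of 13 lower and 0 higher, so most of its members were not called. Fatty acid degradation fell in 20 of 35 tested genes and rose in 3, with a median log2 fold change of -1.15. The number that fell was 12 without rice straw replicate 1 and 11 without replicate 3. The number that rose was 0 without poplar wood replicate 2, rice straw replicate 1 or rice straw replicate 2, and 1 without rice straw replicate 3. That list shares alcC and aldehyde dehydrogenase genes with glycolysis. The aldehyde dehydrogenase aldA (A00217) had 19.9, 36.4 and 45.8 FPKM on poplar wood, against 715, 815 and 788 FPKM on rice straw. Poplar values were lower throughout, with a log2 fold change of -4.54 ± 0.32 (SE; limma, adjusted p = 0.000215). Among the 3 that rose was acyl-CoA oxidase POX1 (A09293), which starts peroxisomal fatty acid breakdown, at 12.7, 70.2 and 130.3 FPKM on poplar wood, against 4.12, 5.22 and 5.47 FPKM on rice straw. Its poplar cultures spread widely above the straw cultures, with a log2 fold change of 3.09 ± 0.73 (SE; limma, adjusted p = 0.016), and the call was lost in each of the first 3 of these omissions. It was 4.03 without poplar wood replicate 1 and 2.40 without replicate 3. In oxidative phosphorylation 20 of 105 tested genes fell and 3 rose, with 21.9% called, below the 26.4% among all tested genes. By direction, the share that fell was above the background of 13.4% and the share that rose below that of 13.0%. Over the omissions of single libraries 1 to 6 rose. Calls of a fall numbered 36 without poplar wood replicate 3, 12 without poplar wood replicate 2, and 13, 10 and 9 without rice straw replicates 1, 2 and 3 in that order.

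Chaperone genes moved in both directions. Of 49 tested heat shock proteins and chaperones 16 rose and 15 fell on poplar wood, and 10 rose without rice straw replicate 3. Small heat shock proteins, which bind unfolding proteins, were among those that fell: of 13 tested genes described as heat shock protein 16, 8 fell and 1 rose. The gene hsp16 A16534 had 4.47, 2.96 and 2.14 FPKM on poplar wood, against 405, 1353 and 1004 FPKM on rice straw. The poplar cultures were all near the bottom of the range, straw replicate 1 was the lowest straw culture, and the log2 fold change was -7.65 ± 0.46 (SE; limma, adjusted p = 0.000137). Another small heat shock gene, hsp30 (A03303), had 10.1, 9.93 and 6.84 FPKM on poplar wood, against 209, 772 and 525 FPKM on rice straw. Straw replicate 1 was again the lowest of its group and above all poplar values, with a log2 fold change of -5.49 ± 0.46 (SE; limma, adjusted p = 0.000371). On the other media A16534 stood at 31.8, 36.8 and 25.8 FPKM on Chinese fir wood and 371, 187 and 11.6 FPKM on PDA. Among those that rose was the chaperone bipA (A15303) of the endoplasmic reticulum, which folds proteins entering the secretory pathway. It had 417, 532 and 563 FPKM on poplar wood, against 117, 129 and 123 FPKM on rice straw. Poplar wood was higher in every culture, with a log2 fold change of 2.02 ± 0.23 (SE; limma, adjusted p = 0.000891). The ribosome-associated chaperone sks2 (A12955) had 582, 1121 and 1326 FPKM on poplar wood, against 221, 299 and 273 FPKM on rice straw. It was likewise higher, poplar replicate 1 being the lowest of its group, with a log2 fold change of 1.86 ± 0.34 (SE; limma, adjusted p = 0.00619). Antioxidant enzymes rose in 2 of 34 tested genes and fell in 6, with a median log2 fold change of -0.08. In all 23.5% were called, below the 26.4% among all tested genes. By direction, the share that fell was above the background of 13.4% and the share that rose below that of 13.0%. Those called higher numbered 5 without poplar wood replicate 1, and those called lower 10 without poplar wood replicate 3. Among those that fell, mitochondrial manganese superoxide dismutase (A02697), which removes superoxide, had 54.3, 105 and 74.3 FPKM on poplar wood, against 1581, 1704 and 1763 FPKM on rice straw. The poplar values were all far lower, with a log2 fold change of -4.47 ± 0.28 (SE; limma, adjusted p = 0.000158).

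**Figure D4:**
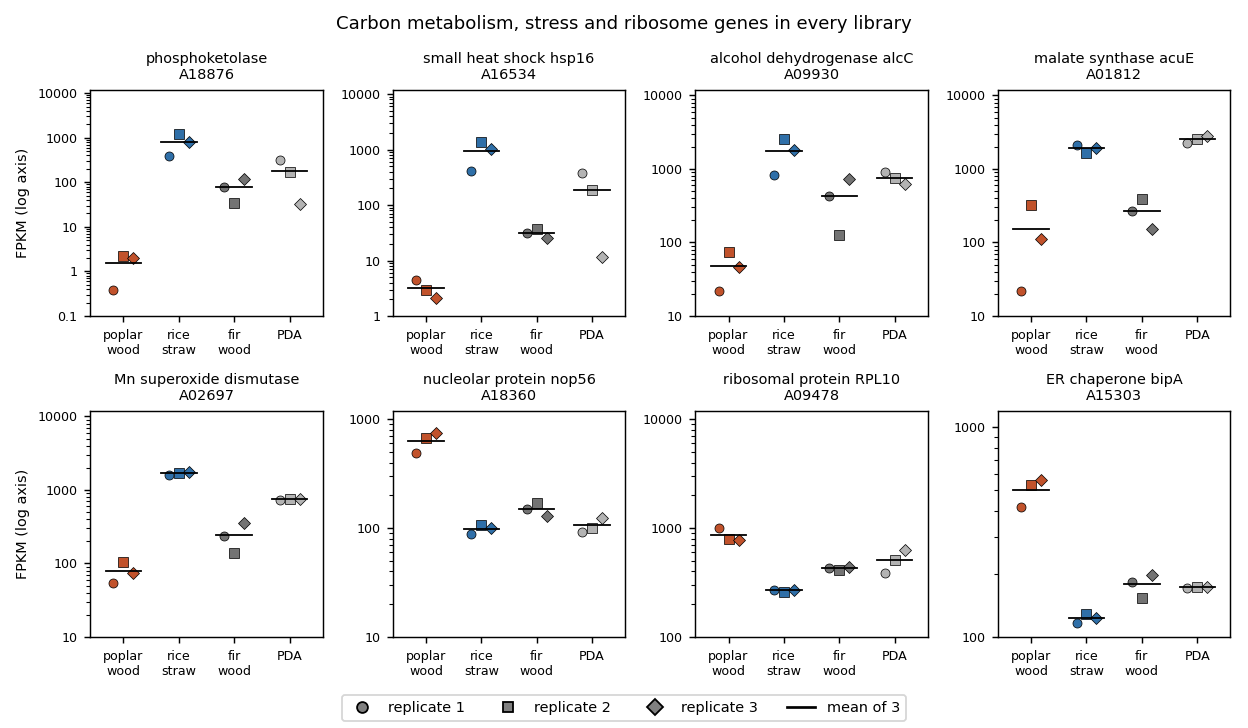
FPKM on a log axis of 8 genes of carbon metabolism, stress response and protein synthesis in all 12 libraries, with 1 symbol per replicate number and a bar at the mean of 3 libraries, poplar wood in orange and rice straw in blue. For phosphoketolase, hsp16, alcC, acuE and manganese superoxide dismutase the 3 poplar values lie below all straw values, and for nop56, RPL10 and bipA they lie above.

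Ribosome assembly genes rose together on poplar wood. In the pathway of ribosome biogenesis 51 of 80 tested genes rose and 0 fell, with a median log2 fold change of 1.87, and poplar wood lay wholly above rice straw in 59 of the 80. Leaving out single libraries gave 44 to 53 genes. Most named members build the small subunit processome or modify ribosomal RNA, but the pathway label also covers genes of other description, such as the endoglucanase Eg5A already given and casein kinase hhp1. Nucleolar protein nop56 (A18360), a core protein of the particles that methylate ribosomal RNA, had 489.9, 673 and 746 FPKM on poplar wood, against 89.1, 106 and 100.3 FPKM on rice straw. All poplar cultures were well above all straw cultures, with a log2 fold change of 2.66 ± 0.25 (SE; limma, adjusted p = 0.000505). The assembly factor TIF6 (A01709), which keeps the large subunit inactive until it is mature, had 266, 699 and 846 FPKM on poplar wood, against 33.3, 45.96 and 38.2 FPKM on rice straw. Replicate 1 was the lowest poplar culture and still far above straw, with a log2 fold change of 3.76 ± 0.43 (SE; limma, adjusted p = 0.000975). On the other media nop56 stood at 150.0, 168 and 129 FPKM on Chinese fir wood and 92.8, 101 and 125 FPKM on PDA. These nop56 values were at or slightly above the straw level, which did not hold for the whole pathway on PDA. The summed level of the 83 genes in the annotation was 4933, 8808 and 9195 FPKM on poplar wood, against 2436, 2975 and 2793 FPKM on rice straw. The same sum was 2840, 2908 and 2722 FPKM on Chinese fir wood and 5584, 5635 and 5806 FPKM on PDA. PDA thus lay above rice straw and above poplar wood replicate 1.

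**Figure D5:**
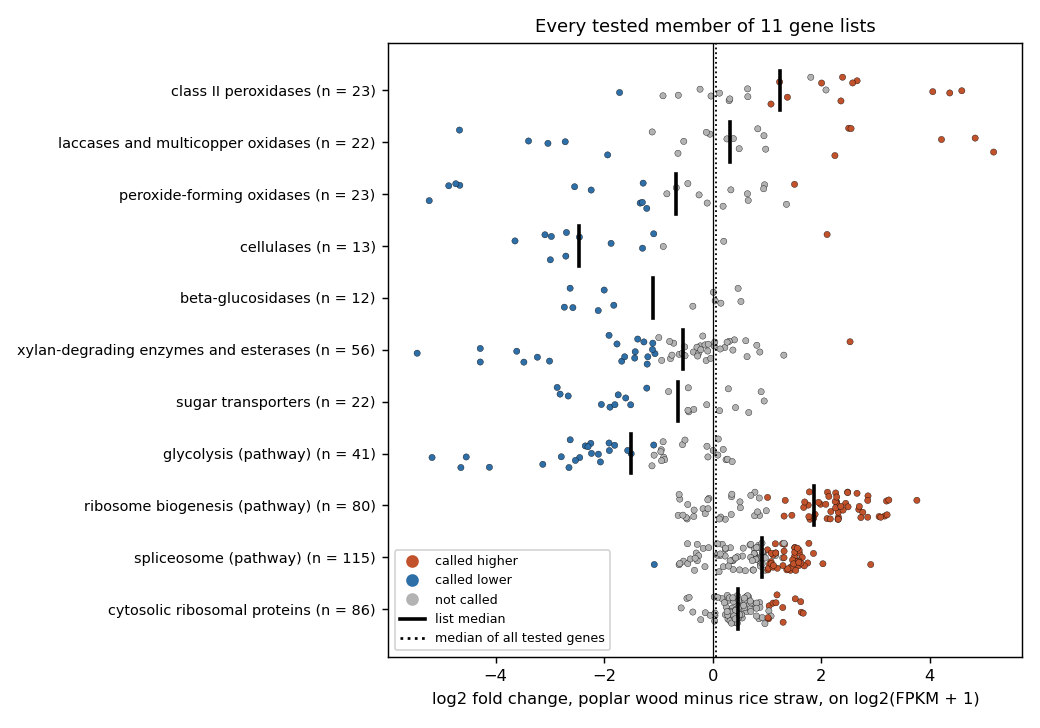
The log2 fold change, poplar wood minus rice straw on log2(FPKM + 1), of every tested member of 11 gene lists, coloured by call, with the list median as a black bar and the median over all 13563 genes (0.07) dotted. Medians range from -2.45 for cellulases to 1.87 for ribosome biogenesis, and laccases are spread over both sides of 0.

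Cytosolic ribosomal proteins themselves changed less. Of 86 tested genes 12 rose and 0 fell, a share near the background, with a median log2 fold change of 0.47. The summed level of all 89 genes in the annotation was 18874, 37090 and 35861 FPKM on poplar wood, against 18589, 20511 and 20280 FPKM on rice straw, so poplar replicate 1 fell within the straw range. The number that rose was 26 without poplar wood replicate 1, 5 without replicate 2 and 7 without replicate 3. It was 3, 5 and 4 without rice straw replicates 1, 2 and 3 in that order. The most abundant riser, RPL10 (A09478) of the large subunit, had 1000.4, 796 and 785 FPKM on poplar wood, against 272, 261 and 272 FPKM on rice straw. Replicate 1 was here the highest poplar culture, and the groups were apart, with a log2 fold change of 1.67 ± 0.22 (SE; limma, adjusted p = 0.00168). Genes of the spliceosome, which removes introns, rose in 47 of 115 and fell in 1, with a median log2 fold change of 0.91. They rose in 28 without rice straw replicate 3 and in 68 without poplar wood replicate 1 and rice straw replicate 3. Protein processing in the endoplasmic reticulum had 15 of 117 genes higher, a share near the background, and 10 lower, a share below it. It had 35 higher without poplar wood replicate 1 and 9 without rice straw replicate 3. Proteasome genes had 0 of 51 higher and 1 lower, a pyruvate dehydrogenase kinase (PKP1, A16560) that the pathway label includes and that was not called without rice straw replicate 3 or with a pseudocount of 5. Without poplar wood replicate 1, 9 proteasome genes were called higher, and without poplar wood replicate 3, 8 were called lower, so their direction differed between poplar cultures.

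Of 40 tested metal uptake genes 10 were lower, a share above the background of 13.4%. Another 4 were higher, a share below the background of 13.0%, and 7 were higher without poplar wood replicate 1. The manganese transporter SMF1 (A04759) had 20.8, 45.9 and 36.9 FPKM on poplar wood, against 354, 345 and 351 FPKM on rice straw. All poplar values were lower by a wide margin, with a log2 fold change of -3.38 ± 0.31 (SE; limma, adjusted p = 0.000489). A ferric or cupric reductase frp2 (A07927), which reduces metals at the cell surface before uptake, had 1.73, 4.53 and 0.568 FPKM on poplar wood, against 105, 291 and 204 FPKM on rice straw. Poplar wood was nearly without it, with a log2 fold change of -6.01 ± 0.53 (SE; limma, adjusted p = 0.000413). A further gene of the same name (A10781) had 1458, 1306 and 1062 FPKM on poplar wood, against 510.1, 552 and 537 FPKM on rice straw. It went the other way, with a log2 fold change of 1.25 ± 0.23 (SE; limma, adjusted p = 0.00619). The zinc transporter ZRT2 (A11159) had 434, 157 and 82.8 FPKM on poplar wood, against 13.97, 14.99 and 13.5 FPKM on rice straw. Its poplar cultures differed several-fold and all exceeded straw, with a log2 fold change of 3.56 ± 0.54 (SE; limma, adjusted p = 0.00274), or 2.92 without poplar wood replicate 1. Calcium-transporting ATPase cta3 (A03378), a cation pump, had 3.48, 7.67 and 3.01 FPKM on poplar wood, against 383, 253 and 299 FPKM on rice straw. It was lower on poplar wood in all cultures, with a log2 fold change of -5.84 ± 0.35 (SE; limma, adjusted p = 0.000134).

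Among 169 tested transcription factors 23 rose and 19 fell, and 15, 15 and 14 rose without rice straw replicates 1, 2 and 3 in that order. The most abundant one that fell was sreA (A08176), known in other fungi as a repressor of iron uptake, at 293, 281 and 294 FPKM on poplar wood, against 1683, 2079 and 1848 FPKM on rice straw. The 3 poplar cultures were nearly equal and far below straw, with a log2 fold change of -2.68 ± 0.22 (SE; limma, adjusted p = 0.000346). The most abundant riser was ustR (A18886), a name from a toxin gene cluster, at 155, 128 and 176 FPKM on poplar wood, against 62.8, 61.8 and 59.9 FPKM on rice straw. Poplar wood was higher in each culture, with a log2 fold change of 1.29 ± 0.23 (SE; limma, adjusted p = 0.0049). Pheromone and mating genes, which govern recognition of partners in basidiomycetes, rose in 13 of 92, a share near the background, and fell in 7, a share below it. The receptor PRA1 (A17676) had 38.8, 45.6 and 101 FPKM on poplar wood, against 1.94, 1.53 and 2.23 FPKM on rice straw. Poplar replicate 3 was highest and straw cultures were uniformly low, with a log2 fold change of 4.32 ± 0.38 (SE; limma, adjusted p = 0.000412). Another receptor, BAR2 (A14818), had 6.74, 6.11 and 2.30 FPKM on poplar wood, against 126, 159 and 144 FPKM on rice straw. That gene was low in all poplar cultures, with a log2 fold change of -4.66 ± 0.36 (SE; limma, adjusted p = 0.000293). Among 33 genes described as pheromone B alpha 2 receptor 7 rose and 3 fell, with log2 fold changes from -4.66 to 4.02. Without poplar wood replicate 3 the mating genes called higher numbered 22.

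Peptidases rose in 23 of 187 tested genes and fell in 17, both near or under the background shares, and 26 fell without poplar wood replicate 1 and 10 without rice straw replicate 3. Genes described as aspergillopepsin-2, an acid protease, rose in 7 of 11 and fell in 2. Metacaspase casB (A13240), a cysteine protease of the caspase fold, had 381, 293 and 266 FPKM on poplar wood, against 4.49, 7.41 and 5.57 FPKM on rice straw. All poplar cultures were alike and far above straw, with a log2 fold change of 5.53 ± 0.27 (SE; limma, adjusted p = 0.000134). A gene described as mitochondrial chaperone bcs1 (A07919), known in yeast for assembling a respiratory complex, had 47.9, 124 and 110.0 FPKM on poplar wood, against 2.71, 3.69 and 3.37 FPKM on rice straw. Poplar replicate 1 was the lowest of its group and the groups were far apart, with a log2 fold change of 4.37 ± 0.38 (SE; limma, adjusted p = 0.0004). Of 6 tested genes of that description 2 rose and 4 fell. The gene GAS1 (A06292), described as an appressorium virulence factor in a plant pathogen, had 15.96, 23.3 and 4.79 FPKM on poplar wood, against 517, 711 and 593 FPKM on rice straw. It was far lower on poplar wood, with a log2 fold change of -5.50 ± 0.50 (SE; limma, adjusted p = 0.000448), or -4.89 without poplar wood replicate 3.

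Genes without a description made up 691 of the called genes that rose, or 39.2%, and 827 of those that fell, or 45.6%. Among all tested genes the share was 44.2%, so the share among genes that fell was near it. A01095 had 623, 2691 and 1068 FPKM on poplar wood, against 26.9, 13.4 and 19.1 FPKM on rice straw. Poplar replicate 2 was highest, all straw cultures were low, and the log2 fold change was 5.92 ± 0.52 (SE; limma, adjusted p = 0.000415). A01116 had 18.2, 424 and 119 FPKM on poplar wood, against 1.47, 0.813 and 1.15 FPKM on rice straw. Poplar replicate 1 was much lower than the other poplar cultures and above all straw cultures, with a log2 fold change of 5.55 ± 0.96 (SE; limma, adjusted p = 0.00473). It was 6.73 without poplar wood replicate 1 and 4.50 without replicate 2. Lower on poplar wood was A00641, at 0.910, 1.75 and 1.14 FPKM on poplar wood, against 209, 393 and 322 FPKM on rice straw. It was close to the filter in all poplar cultures, with a log2 fold change of -7.06 ± 0.31 (SE; limma, adjusted p = 0.000134). A10953 was listed at 0.161 FPKM in poplar wood replicate 1 and at 0 in replicates 2 and 3, against 75.1, 183 and 127 FPKM on rice straw. It passed the filter only through rice straw. Genes that fell had a median coding length of 1222.5 bases and genes that rose 1498.5 bases, against 1419 bases for all tested genes.

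Members of a description or symbol were often related genes. Of 7455 tested genes with a symbol 5456 shared it with another tested gene, and 2488 of those with exactly 1 other. The sources used here do not say how reads matching several genes were counted, so near-identical genes may share reads and do not count as independent. Of the 3576 called genes 1899 were called in every 1 of the 6 fits that left out a single library. FPKM is relative to all reads of a library, so a lower value on poplar wood does not separate less RNA of a gene from more RNA of others, and fewer active cells from less RNA per cell.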

How the data were processed

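RNA from mycelium was sequenced as stranded poly(A) libraries, and the authors deposited FPKM per gene, without replicate pooling. Fastp, HISAT2, HTSeq and DESeq2 are named in the submitters' processing notes; versions, settings and the genome build are not given in the sources used here. The deposited FPKM values correspond to whole reads over coding lengths for 16059 of 16059 genes within a tolerance of 0.001, which gave the reads per library. Coding length, not transcript length, scales these values.

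Genes with 1 FPKM or more in 3 of the 6 libraries were tested with limma 3.58.1 (R 4.3.3; moderated test with an intensity trend) on log2(FPKM + 1), poplar wood minus rice straw, with Benjamini-Hochberg adjustment over all 13563 genes. A gene was called at an adjusted p under 0.05 and a log2 fold change of at least 1 in size. On this scale the change of low genes is understated. Replicates are biological by the labels, and p-values measure the spread between these libraries. The fit was restricted to the compared groups because the spread on poplar wood was wider.

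The comparison, the 57 gene lists and the rule for named genes were chosen with earlier results of these data known. Lists came from patterns on descriptions or pathway names; some false matches were removed by reading descriptions. Among called genes with a mean of 10 FPKM or more in the higher group, no overlap and a description, the rule named the 10 largest rises and falls; it added the most abundant called gene in each direction of each list and the largest undescribed changes. This gave 109 genes, of which a part is described. Outside it, A14046, A15535, A04976, A14348, A05729, A09811, A00617, A16832, A15209, A03217, A01951, A14475, A18288, A01709 and A11159 were chosen after their values were seen. Levels on Chinese fir wood and PDA are given as values alone, since comparisons with them share libraries. Alternatives covered the pseudocount, filter, scaling, weights, a fit of all 12 libraries, a replicate block, limma-voom on the worked-back reads and the omission of each library. The joint omission of poplar wood replicate 1 and rice straw replicate 3 was added after the data were seen.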

Additional observations from a re-analysis of the deposited data

How the results depend on the processing

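No gene called in the reported fit was called in the opposite direction under any alternative. The 3576 called genes became 3886 and 2429 with pseudocounts of 0.1 and 5, and 3131 and 3063 with a filter at 5 FPKM and without a filter. With a pseudocount of 5 the number higher on poplar wood was 1172, against 1764. The fit of all 4 groups called 4012, group weights 3628, median-of-ratios scaling 3678, quantile normalisation 3702, TPM scaling 3873 and limma-voom on the worked-back reads 3929. Under TPM scaling the middle log2 fold change among tested genes was 0.18, against 0.07, and 2241 of the called genes were higher. Leaving out 1 library gave 2026 to 4309 called genes, 965 to 2462 of them higher and 1061 to 2104 lower on poplar wood. Omission of a poplar wood library gave 4309, 2713 and 4007 for replicates 1, 2 and 3, and omission of a straw library 2282, 2378 and 2026; the cause was not tested. Leaving out poplar wood replicate 1 and rice straw replicate 3 together gave 4072. With a pseudocount of 5 the number of class II peroxidases called higher was 7, against 11. In the list of xylan-degrading enzymes and esterases 10 were then called lower, against 20.

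Same-numbered poplar wood and rice straw libraries deviated together at correlations of 0.25, 0.06 and 0.08. With 3 libraries in each group, these values cannot decide whether replicate numbers pair the libraries. With the replicate block 3937 genes were called, 3569 of them shared with the reported fit. Poplar wood replicates 1 and 2 correlated best with their own number, and replicate 3 with rice straw replicate 2 (0.18).

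At the shallowest library 1 FPKM stood for 33.2 reads at the median coding length, so calls near the filter rest on few reads, and 14.2% of genes with a mean under 5 FPKM were called. Groups of 3 libraries were too small for a test of single outlying values, and the wider spread on poplar wood limits calls of moderate change.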
